A study of Mus musculus with 4 samples.

Results

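The genes described here encode 10 neuronal calcium-binding proteins: Calb2, Scgn, Pvalb, Necab1, Necab2, Cpne4, Cpne6, Hpca, Vsnl1 and Ncald. They were chosen by name, and all 10 were found, each on 1 probe set annotated with that symbol only, among 19938 named genes on the array. Levels were measured at embryonic day 17.5 in 4 brain regions: the olfactory bulb, the cerebellum, the superior colliculus, a visual centre of the dorsal midbrain, and the pontine nucleus, a hindbrain relay of mossy fibres to the cerebellum. The source was mice of the ICR background. The cerebellar pool held 13 mice, the bulb pool 14, the pontine pool 15 and the collicular pool 16. Each pool was hybridised to 1 array, so there is neither an SD nor a p-value, and regional differences cannot be told apart from those between single pooled preparations. No genotype or treatment is given for any group.

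Calcium entering a neuron through channels and receptors acts through proteins that bind it. EF-hand proteins hold calcium in a helix-loop-helix fold and act as buffers that shape the calcium signal, as calretinin and parvalbumin do, or as sensors that change shape and engage partners, as the visinin-like sensors hippocalcin, VILIP-1 and neurocalcin delta do. Copines bind calcium through C2 domains, which attach them to membrane phospholipids. Several of these proteins are widely used as markers of neuron classes, among them calretinin and secretagogin in interneurons of the olfactory bulb and parvalbumin in fast-spiking interneurons and Purkinje cells.

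All values are log2 signals, so 1 unit is a 2-fold difference. Comparisons covered the 10908 genes with at least 1 array above a floor of 8.56, the median of all gene levels. A gene counted as higher in a region when it lay at least 1 log2 unit above every other array, and lower when every other array exceeded it by at least as much. As a background, 203 genes of vomeronasal receptors and beta defensins had a 95th percentile of 7.33. For these genes, an array differed from the mean of the remaining 3 by between -0.32 and 0.34 in 95% of cases. The array medians lay between 8.07 and 8.13. Regional marker genes were high where the labels place them: 7 of 10 cerebellar markers, all 9 bulb markers, 7 of the 8 measured pontine markers and 4 of 6 collicular markers passed the rule as higher in their own region. The exceptions in the cerebellum were Pcp4, Barhl1 and Neurod1, which were also high elsewhere. Pax6 was also high in the cerebellum, at 11.64, as well as in the pontine nucleus, at 11.76. In the colliculus Tal2 read 7.25, near the background level, and Lhx1 was higher in the cerebellum instead.

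Of the 10 genes, 9 exceeded the level floor, and Pvalb did not. Among the 9 the olfactory bulb was called higher for Scgn, Cpne6 and Cpne4, the superior colliculus for Vsnl1, and the pontine nucleus lower for Necab1. The remaining 4, Calb2, Necab2, Hpca and Ncald, met no call. A call in some region was thus made for 5 of the 9, against 4.58% of all genes compared. Higher in the bulb were 3 of 9 against a background of 0.972%, higher in the colliculus 1 against 0.715%, and lower in the pontine nucleus 1 against 0.981%. Scgn and Cpne6 exceeded the floor in the bulb only, so they are among the 9 only through the region in which they were called higher. No member was higher or lower in the cerebellum, where 0.605% and 0.156% of all genes were, none was higher in the pontine nucleus, where 0.798% were, and none was lower in the bulb or the colliculus, where 0.431% and 0.165% were. The 10 genes had been picked with results of these arrays known, so their calls describe the set and do not support it. The array signal is of bulk tissue, in which fewer cells of a type and less RNA per cell cannot be told apart.

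**Figure D1:**
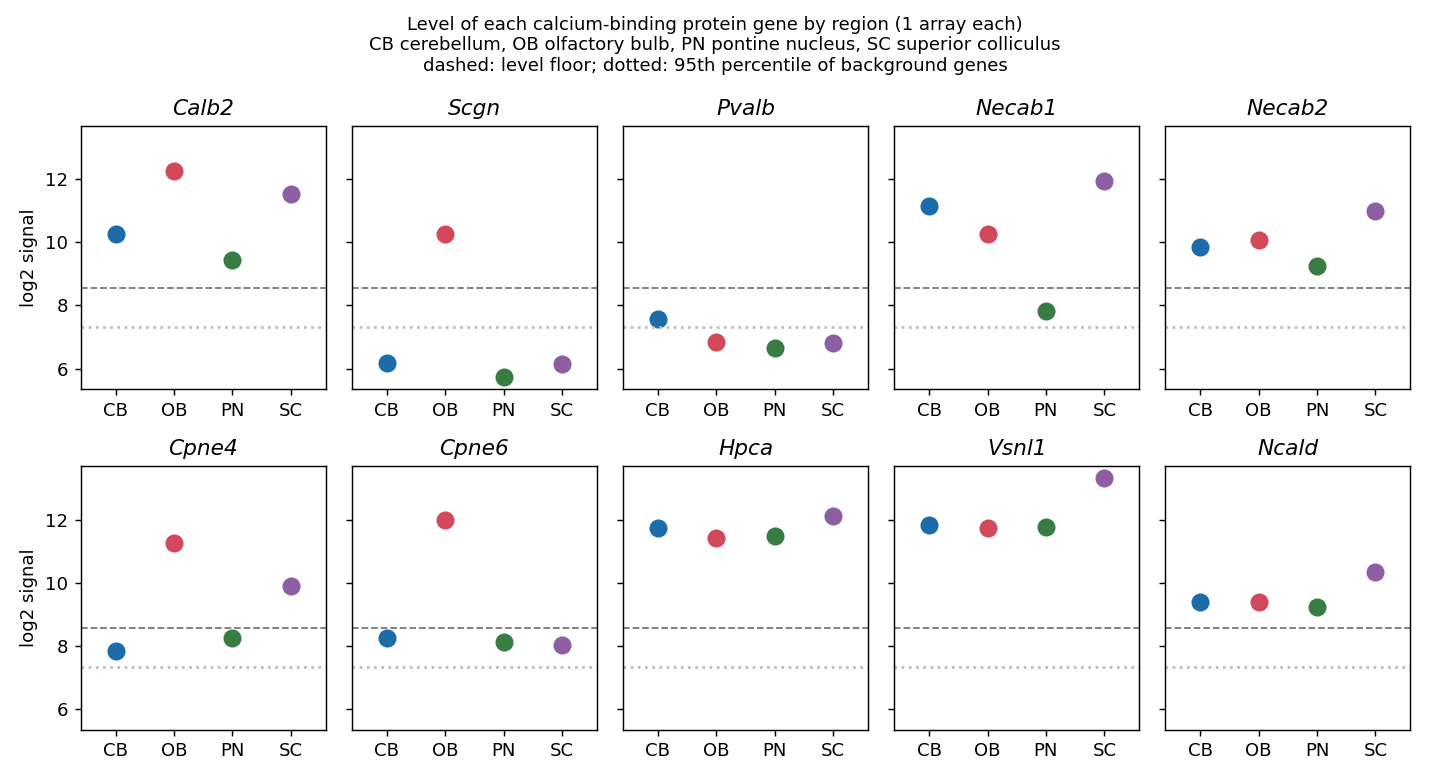
Level of each gene (log2 signal, vertical axis) on the 4 arrays, with 1 point per region, the level floor of 8.56 dashed and the 95th percentile of the background genes, 7.33, dotted. Scgn and Cpne6 stood high in the olfactory bulb alone, Calb2 and Cpne4 were high in the bulb and next in the superior colliculus, Vsnl1 stood high in the colliculus, and Necab1 was low in the pontine nucleus.

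Among the EF-hand buffers, Calb2 (calretinin, probe set 10581654) read 12.27 in the olfactory bulb, 11.55 in the superior colliculus, 10.28 in the cerebellum and, lowest, 9.45 in the pontine nucleus. All 4 levels lay above the floor, and the order was spread over 2.82 log2 units, or 7.06-fold. The step from the bulb to the colliculus was 0.72, which kept Calb2 from being called higher in the bulb, and the step from the cerebellum down to the pontine nucleus was 0.83. The bulb and the colliculus therefore formed the upper pair and the cerebellum and the pontine nucleus the lower one, with 1.27 between them.

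Pvalb (parvalbumin, probe set 10430297) read 7.57 in the cerebellum, 6.84 in the bulb, 6.81 in the superior colliculus and 6.64 in the pontine nucleus. Only the cerebellar value exceeded the background percentile of 7.33, and the cerebellum lay 0.73 above the next region. Such low signals do not show that the transcript was absent.

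Scgn (secretagogin, probe set 10408268), an EF-hand sensor, read 10.28 in the olfactory bulb, 6.16 in the cerebellum, 6.13 in the superior colliculus and 5.72 in the pontine nucleus. The 3 low values all lay within the range of the background genes, so the gap of 4.12 log2 units (17.4-fold) between the bulb and the cerebellum is a lower bound. Of the 9 genes above the floor it had the widest range, 4.56. Its promoter sequence is shown because Scgn had the widest gap of the 10 genes. It covers the 250 bases before the annotated start, from RefSeq, build GRCm38.p6, chr13:23991215-23991464, minus strand. Capitals mark matches, on either strand, to any of 5 short motifs. The TATA box was searched as TATAAA. The letters of the CCAAT box are its name. The GC box, bound by Sp factors, was searched as GGGCGG. The core that many homeodomain proteins bind was searched as TAATTA. The E-box that neuronal bHLH factors prefer was searched as CAGATG. No motif overlaps another in the windows printed here.
Scgn: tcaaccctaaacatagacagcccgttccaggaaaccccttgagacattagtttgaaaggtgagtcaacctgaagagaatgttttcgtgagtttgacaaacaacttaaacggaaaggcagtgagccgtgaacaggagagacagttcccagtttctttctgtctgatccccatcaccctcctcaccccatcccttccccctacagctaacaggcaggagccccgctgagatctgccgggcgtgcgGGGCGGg
The capitals in it are a GC box beginning 7 bases before the start. That motif occurs in 32.7% of the 32851 windows of this length in the RefSeq promoter table.

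Both Necab genes, which encode neuronal proteins with an EF-hand near the N-terminus, were lowest in the pontine nucleus and highest in the superior colliculus. Necab1 (probe set 10511665) read 11.95 in the superior colliculus, 11.17 in the cerebellum, 10.26 in the bulb and 7.83 in the pontine nucleus. The pontine level lay 2.43 log2 units (5.39-fold) below the next lowest, in the bulb, and it was the only one under the level floor. By the gap below the other arrays Necab1 ranked 7 among the 10908 genes in the pontine nucleus. The colliculus lay 0.78 above the cerebellum, short of a call.

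Necab2 (probe set 10575880), whose protein is known to bind an adenosine receptor of striatal neurons, read 11.01 in the superior colliculus, 10.07 in the olfactory bulb, 9.84 in the cerebellum and, lowest, 9.24 in the pontine nucleus. Its highest level lay 0.94 log2 units above the next, just under the rule, and its range was 1.77 against 4.12 for Necab1. The widest contrast between the paralogs was in the pontine nucleus, where the distance to the average of the remaining arrays was -3.30 for Necab1 and -1.07 for Necab2. In the cerebellum it was 1.16 for Necab1 and -0.27 for Necab2. The third member of the family, Necab3, varied less and was highest in the cerebellum, at 8.78 against 8.06 to 8.30 elsewhere.

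The copines Cpne4 and Cpne6 were both called higher in the olfactory bulb but differed elsewhere. Cpne6 (probe set 10415228), a copine of forebrain neurons that acts at dendritic spines, read 11.99 in the bulb, 8.25 in the cerebellum, 8.11 in the pontine nucleus and 8.03 in the colliculus. The 3 low levels were within 0.22 of each other, and the bulb lay 3.74 log2 units (13.4-fold) above the highest of them. Cpne4 (probe set 10588380) read 11.26 in the bulb, 9.89 in the colliculus, 8.26 in the pontine nucleus and 7.84 in the cerebellum. Its bulb level lay 1.37 (2.58-fold) above the colliculus, and the colliculus lay 1.63 above the pontine nucleus. Cpne4 was thus graded over 3.42 log2 units, with the colliculus in between, whereas Cpne6 stood apart in the bulb alone.

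The RefSeq promoter table (GRCm38.p6) holds 2 starts for Cpne4, both on the plus strand, at chr9:104569405-104569654 and chr9:104587808-104588057. They are shown, again as the 250 bases before each start with the same capitals, because the array does not tell which start was used.
Cpne4 start 1: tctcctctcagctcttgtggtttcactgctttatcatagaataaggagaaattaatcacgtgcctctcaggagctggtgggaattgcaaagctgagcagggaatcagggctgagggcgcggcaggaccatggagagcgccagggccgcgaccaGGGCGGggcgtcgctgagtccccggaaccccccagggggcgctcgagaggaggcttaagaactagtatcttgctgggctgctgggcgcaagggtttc
Cpne4 start 2: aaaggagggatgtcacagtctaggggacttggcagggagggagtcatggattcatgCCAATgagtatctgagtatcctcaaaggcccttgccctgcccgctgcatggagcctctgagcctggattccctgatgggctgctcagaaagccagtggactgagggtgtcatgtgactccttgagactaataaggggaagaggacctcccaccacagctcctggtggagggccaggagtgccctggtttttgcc
The first holds a GC box beginning 97 bases before the start and the second a CCAAT match beginning 194 bases before it. CCAAT occurs in 33.8% of all windows.

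The visinin-like calcium sensors Hpca, Vsnl1 and Ncald, which can move to membranes when they bind calcium, shared their order at the top: the superior colliculus was highest for each. Vsnl1 (VILIP-1, probe set 10399407) read 13.32 in the superior colliculus, 11.83 in the cerebellum, 11.78 in the pontine nucleus and 11.75 in the olfactory bulb. The 3 lower regions lay within 0.08 log2 units, and the colliculus lay 1.49 (2.81-fold) above the highest of them. In the colliculus Vsnl1 ranked 35 by gap among the genes compared. Ncald (neurocalcin delta, probe set 10428222) read 10.35 in the superior colliculus, 9.40 in both the cerebellum and the bulb, and 9.23 in the pontine nucleus. Its gap of 0.95 log2 units fell just short of a call. Hpca (hippocalcin, probe set 10516544), named for its abundance in the hippocampus, read 12.12 in the superior colliculus, 11.75 in the cerebellum, 11.47 in the pontine nucleus and 11.41 in the olfactory bulb. It was the most even of the genes above the floor, with a range of 0.71 log2 units (1.64-fold), and no pair of regions differed by 1 log2 unit.

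Vsnl1 had the only call in the colliculus, and its 2 RefSeq promoter windows (GRCm38.p6, chr12:11436579-11436828 and chr12:11435652-11435901, minus strand) are shown for that reason.
Vsnl1 start 1: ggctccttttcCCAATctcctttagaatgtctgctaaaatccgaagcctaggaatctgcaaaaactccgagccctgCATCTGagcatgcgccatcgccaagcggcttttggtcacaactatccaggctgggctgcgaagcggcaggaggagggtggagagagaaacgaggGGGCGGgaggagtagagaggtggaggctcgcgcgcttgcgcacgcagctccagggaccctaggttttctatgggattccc
Vsnl1 start 2: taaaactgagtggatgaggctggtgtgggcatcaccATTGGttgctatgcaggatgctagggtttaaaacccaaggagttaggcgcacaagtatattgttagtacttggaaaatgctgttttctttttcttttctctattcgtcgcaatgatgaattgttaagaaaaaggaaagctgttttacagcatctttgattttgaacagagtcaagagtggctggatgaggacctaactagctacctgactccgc
The first window holds a CCAAT match, an E-box match and a GC box beginning 239, 174 and 80 bases before the start. The second holds a CCAAT match beginning 214 bases before it. An E-box match of these letters occurs in 14.4% of all windows. Over the 11 windows listed for 6 of the genes (Scgn, Pvalb, Necab2, Cpne4, Hpca and Vsnl1), 5 held the GC box, 3 CCAAT, 1 the E-box, and 0 TATAAA or TAATTA, which occur in 12.4% and 4.84% of all windows. Several windows belong to the same gene, and a match of letters is neither a binding site nor a cause.

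**Figure D2:**
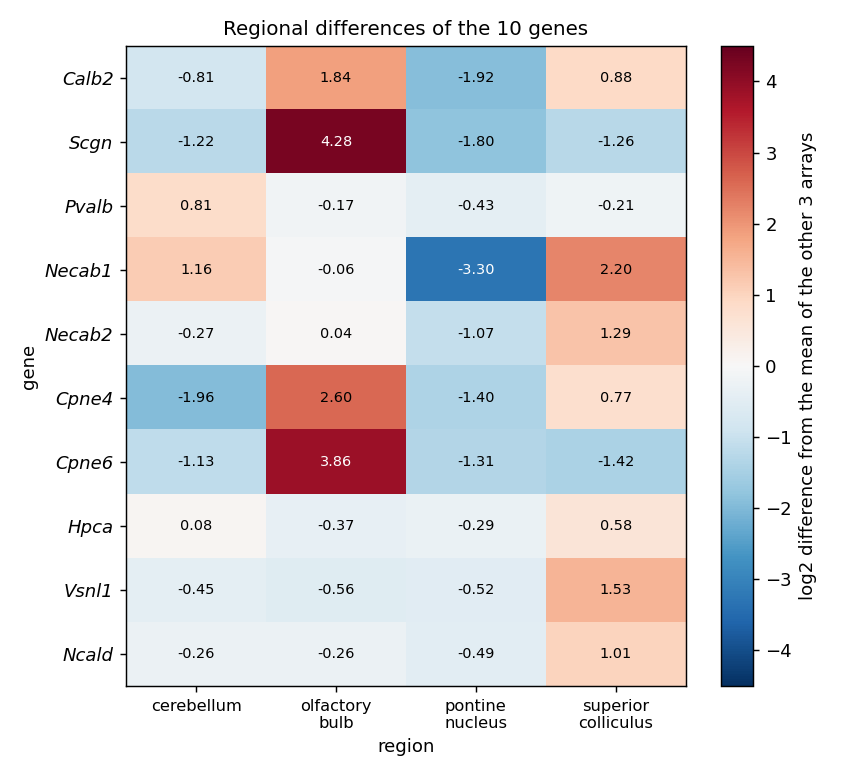
Difference of each gene from the mean of the other 3 arrays (log2 units, colour and printed value), with genes as rows and regions as columns. The pontine column is negative for all 10 genes. Among them Pvalb was below the level floor, and the negative values of Scgn and Cpne6 restate their bulb level. The largest positive values are those of Scgn (4.28) and Cpne6 (3.86) in the olfactory bulb.

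Set against the average of the remaining 3 arrays, none of the 9 genes above the floor was positive in the pontine nucleus. Scgn and Cpne6 exceeded the floor in the bulb only, so their negative values elsewhere restate their bulb level. Over the other 7 genes the pontine median was -1.07 log2 units, from -3.30 for Necab1 to -0.29 for Hpca, and the lowest level was pontine for 4 of the 7. In the superior colliculus all 7 were positive, with a median of 1.01. In the bulb 3 of the 7 and in the cerebellum 2 were positive, with medians of -0.06 and -0.27. For all genes compared the medians lay between -0.06 and 0.03 in the 4 regions. The highest level was in the colliculus for 5 of the 9 genes and in the bulb for the other 4, where 24.0% and 28.1% of all genes compared had their highest level. No gene of the 9 was highest in the cerebellum or the pontine nucleus, which were highest for 19.0% and 28.9% of all genes. The lowest level was in the pontine nucleus for 5 of the 9, Scgn among them, against 26.6% of all genes. It was elsewhere for Cpne4, Cpne6, Hpca and Vsnl1.

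Markers of cell classes were read on the same arrays. All 8 (Tubb3, Map2, Rbfox3, Dcx, Stmn2, Snap25, Elavl3 and Elavl4) exceeded the average of the remaining arrays on the pontine array, with a median difference of 0.22. The cerebellum had the lowest neuronal markers, with a median of -0.26 and 0 of 8 positive. Progenitor and radial glia markers were high there, at a median of 0.59 with 10 of 10 positive. In the bulb the median was 0.28 with 8 of 10. They were low in the pontine nucleus, at -0.55 with 2 of 10, and in the colliculus, at -0.26 with 1 of 10. Of 7 measured astrocyte and oligodendrocyte genes 6 exceeded the floor, with medians of 0.36 in the cerebellum, 0.06 in the pontine nucleus, 0.00 in the colliculus and -0.52 in the bulb. Among them Aqp4, the water channel gene of astrocytes, was called higher in the pontine nucleus, at 10.68 against at most 9.25. Aldh1l1 of the same list went the other way, lowest in the pontine nucleus at 9.56 against 9.76 to 10.87. Gfap stayed below the floor in every region, at 7.02 to 7.50. The part of these cell classes in the regional order of the 9 genes was not tested.

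In the olfactory bulb, genes of other cell types lay high beside Scgn, Cpne6 and Cpne4. Of 6 measured genes for ensheathing and Schwann glia, 5 exceeded the floor and 3 of these (Frzb, Npy and Erbb3) were called higher in the bulb. The mean level over the 6 was 10.45 in the bulb and 8.88 to 9.03 elsewhere, and their summed linear signal was 22800 against 17400 to 18100. Fabp7, also on the radial glia list, weighs most in that sum and was even, at 13.93 to 14.03. Npy read 12.08 in the bulb against 8.37 to 9.90 elsewhere, and Sox10 only 9.34 against 8.67 to 8.85. Of 7 meningeal and fibroblast genes, 4 exceeded the floor, all 4 were above the average of the remaining arrays in the bulb and Dcn was called higher. The mean level over the 7 was 8.32 in the bulb and 7.24 to 7.49 elsewhere, and their summed linear signal was 3500 against 1350 to 1700. The part of these cells in the bulb values was not tested. Genes of olfactory sensory neurons, whose axons enter the bulb, were not high there. Over the 7 measured the mean level was 7.93 in the bulb against 7.95 to 8.13 elsewhere, and Omp, their defining marker, read 7.92. No singly named probe set was found for the globin genes, and Alas2, the 1 measured gene of the blood list, read 9.51 in the bulb and 8.76 to 9.26 elsewhere. Microglial and endothelial genes had median differences between -0.21 and 0.24 in every region, and of the choroid plexus list Ttr, its defining marker, read between 6.49 and 7.71. Otx2, the 1 gene of that list above the floor and also a transcription factor of midbrain and cerebellar cells, read 11.93 in the colliculus, 10.70 in the cerebellum, 8.56 in the bulb and 7.04 in the pontine nucleus. It was called higher in the colliculus and lower in the pontine nucleus, and its part in the values of the calcium-binding genes was not tested.

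Between pairs of regions, 25 of the 54 differences of the 9 genes reached 1 log2 unit. For each direction of a pair, 1.72% to 5.20% of all genes compared did. Of the 9 genes 8, all except Hpca, had at least 1 such difference, against 15.0% of all genes compared. The bulb was the higher region in 12 of the 25 and the lower in 2. Scgn and Cpne6, above the floor in the bulb only, each had 3 of these differences, all with the bulb higher. Those restate their bulb level and also enter the counts of lower regions that follow. The colliculus was the higher in 12 and the lower in 3, the cerebellum the higher in 1 and the lower in 8. The pontine nucleus was the lower region in 12 and the higher in 0, where 1.88%, 2.57% and 1.72% of all genes were higher in it than in the cerebellum, the bulb and the colliculus. The most genes, 6 of 9, were apart between the colliculus and the pontine nucleus. All 6 (Calb2, Necab1, Necab2, Cpne4, Vsnl1 and Ncald) were higher in the colliculus, against 4.12% of all genes in that direction. Necab1 differed most there, by 4.12 log2 units, and Calb2 by 2.10. Between the bulb and the pontine nucleus 5 were apart, all higher in the bulb, against 5.20% of all genes. The cerebellum and the pontine nucleus differed least, with only Necab1 apart, by 3.34 and higher in the cerebellum, where 4.49% of all genes were. Between the cerebellum and the bulb 4 genes (Calb2, Scgn, Cpne4 and Cpne6) were higher in the bulb, against 2.46% of all genes, and Calb2 differed by 1.99. None was higher in the cerebellum than in the bulb or the colliculus, against 2.06% and 3.08%. Between the cerebellum and the colliculus 4 (Calb2, Necab2, Cpne4 and Vsnl1) were higher in the colliculus, against 2.63%. The bulb and the colliculus were the only pair with genes apart both ways. Scgn, Cpne4 and Cpne6 were higher in the bulb, against 2.94% of all genes, and Necab1 and Vsnl1, by 1.69 and 1.57, in the colliculus, against 2.73%. The pairs share arrays and are not independent.

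**Figure D3:**
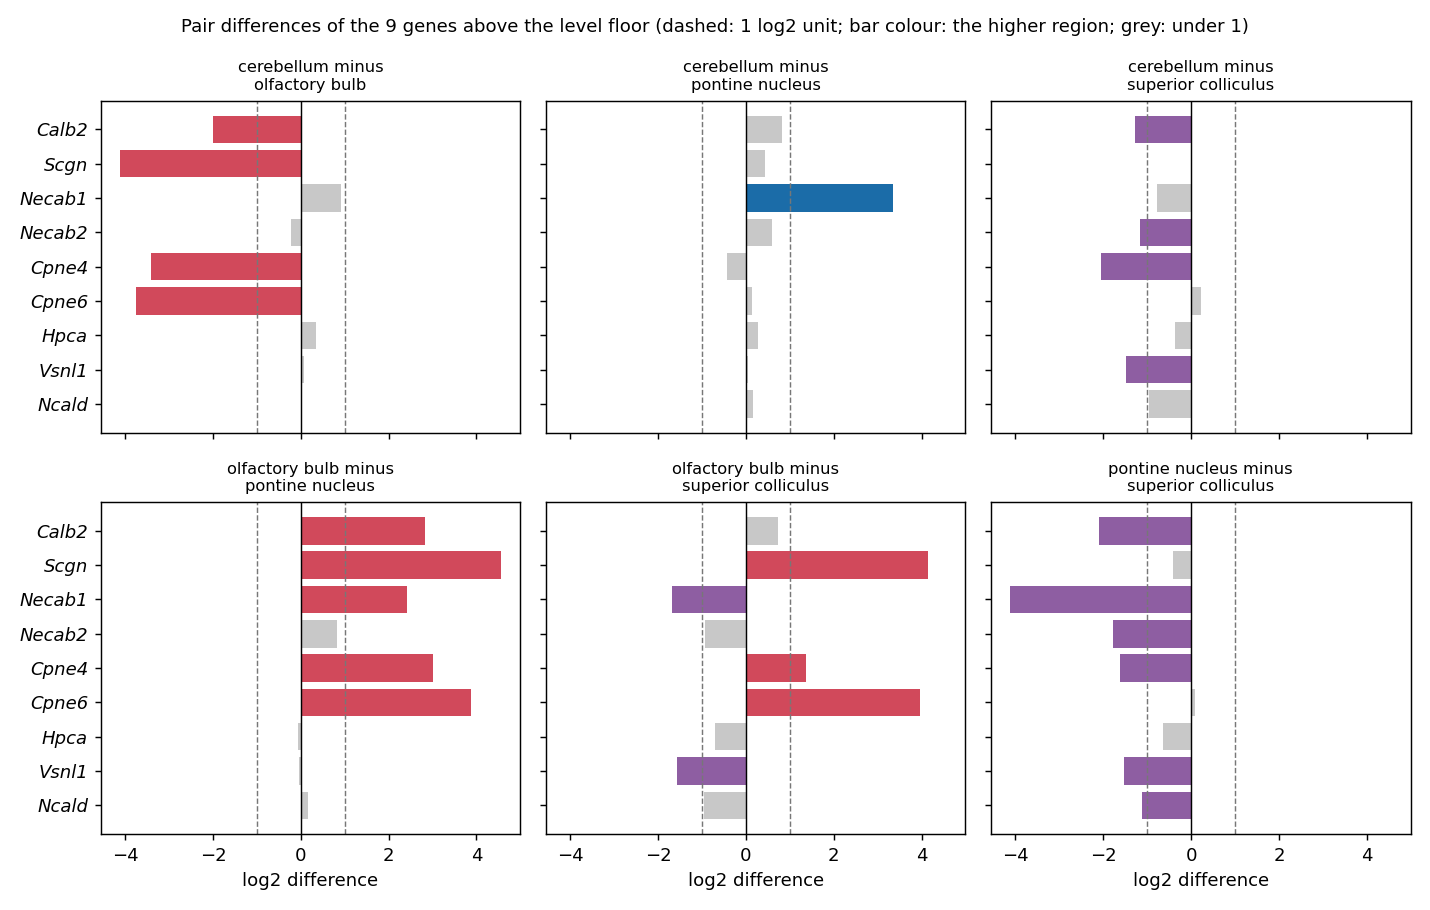
Difference between each pair of regions (log2 units, horizontal axis) for the 9 genes above the level floor, with dashed lines at 1 log2 unit, bars past it coloured by the higher region and the rest grey. Bars past the line never point to the pontine nucleus, and the panel of the bulb against the colliculus has such bars on both sides.

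How alike the regional patterns were was measured as the Euclidean distance between level profiles over the 4 arrays, each centred on its own mean. Over the 36 pairs of the 9 genes the distances ran from 0.45 to 4.66 log2 units, with a median of 2.47. The visinin-like sensors were near each other, with 0.45 between Hpca and Ncald, 0.48 between Vsnl1 and Ncald and 0.85 between Hpca and Vsnl1. Necab2, of another family, lay about as near, at 0.53 from Ncald, 0.65 from Vsnl1 and 0.89 from Hpca. Even profiles lie close on this measure whatever their order. Among the genes with wide ranges, Scgn and Cpne6 lay 0.50 apart and Calb2 and Cpne4 1.11 apart, although in each case the proteins belong to different families. Scgn and Cpne6 exceeded the floor in the bulb only, so their small distance restates that each was high there alone. The copine and Necab paralogs were less alike, with 2.0 between Cpne4 and Cpne6 and 2.10 between Necab1 and Necab2. The largest distance was that of Scgn and Necab1.

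Among all named genes above the floor, those nearest to Scgn were Atp6ap1l at 0.42 and the homeobox genes Dlx2 at 0.45 and Dlx5 at 0.46. Outside the bulb all 3 levels of Scgn and of Atp6ap1l, and some of the Dlx levels, lay within background, so these distances and their order rest partly on background signal. Those nearest to Cpne6 were Dlx5 at 0.21, Dlx2 at 0.36 and Scgn at 0.50. Dlx5 read 11.18 in the bulb and 7.26 to 7.46 elsewhere, and Dlx2 11.01 and 6.86 to 7.50. Those nearest to Necab1 were the forkhead gene Foxp2 at 0.97, the cadherin gene Cdh12 at 0.99 and the Nogo receptor relative Rtn4rl1 at 1.05. Cdh12 read 8.21 in the pontine nucleus against 10.32 to 11.12 elsewhere, and Foxp2 7.77 against 10.74 to 12.09. With 4 arrays a small distance describes these libraries and is weak evidence of likeness.

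Beyond the 10 genes, 64 other genes of EF-hand and copine families were listed, of which 59 were measured and 38 exceeded the floor. Of the 38, 6 met a call in some region, or 15.8%, against 4.58% of all genes compared, and their median range was 0.82 log2 units against 0.39 for all genes compared and 2.82 for the 9 genes. Higher in the cerebellum were Calb1 by 2.17, the copine Cpne9 by 1.37 and the mitochondrial EF-hand gene Efhd1 by 1.30. Calb1 was also lower in the bulb, at 7.86 against at least 9.63. Higher in the bulb was Kcnip2, whose protein is a calcium-binding partner of Kv4 potassium channels, at 10.78 against 8.79 in the colliculus. Higher in the colliculus was the copine Cpne5, at 10.61 against at most 9.48, and lower in the pontine nucleus was Cpne8, at 7.43 against at least 8.43, exactly at the rule.

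Of the 6 further copines measured, all above the floor, 3 thus met a call, in 3 different regions, and their median difference was -0.75 in the pontine nucleus and 0.22 to 0.38 elsewhere. Of the 7 further sensors above the floor only Kcnip2 met a call. Ncs1 (frequenin) read 11.46 to 11.78, and Hpcal1, a close relative of hippocalcin, was lowest in the bulb at 9.13 against 10.06 to 10.33. Kcnip3 was highest in the pontine nucleus, at 11.83 against at most 11.03, a direction that no member of the 9 had. No call was made among the calmodulin and CaBP genes. Their widest range was that of Calml4, from 6.33 in the bulb to 8.47 in the colliculus and below the floor throughout, while Calm2 and Calm3, 2 of the calmodulin genes, were even, at 12.36 to 12.56 and 12.70 to 12.88. Of the S100 genes, 4 of 14 measured exceeded the floor with no call. S100a10, whose product is a partner of annexin A2 and does not itself bind calcium, had the widest range, 10.77 in the bulb and 8.84 to 9.84 elsewhere. Ncs1, Hpcal1, Kcnip3, Calm2 and Calm3 were chosen as examples after their values were seen.

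**Figure D4:**
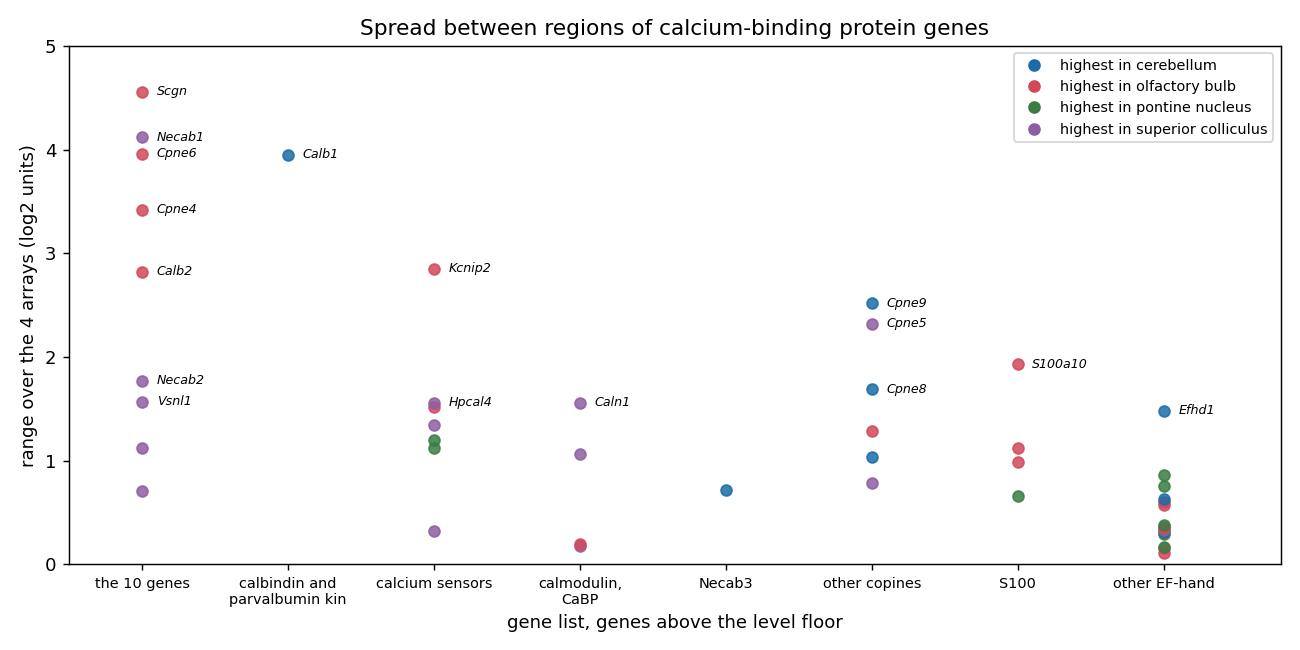
Range over the 4 arrays (highest minus lowest level, log2 units, vertical axis) of each calcium-binding gene above the level floor, by list, coloured by the region with the highest level. The 9 genes reach from 0.71 (Hpca) to 4.56 (Scgn), and of the other lists Calb1 has the widest range, 3.95.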

How the data were processed

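Per the labels' protocols, Trizol extraction and RNeasy purification gave total RNA, from which Ambion WT reagents made sense-strand cDNA for Affymetrix terminal labelling. The submitters' processing notes name Affymetrix Expression Console; its algorithm and normalization, and any build, are not given in these sources. The deposited table holds log2 values, a scale inferred from their range (2.43 to 14.52 in the bulb); array medians were close, so the authors appear to have scaled the arrays, which can hide a difference in total RNA, and weak signals compress folds.

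Of 35556 probe sets, 21789 had 1 symbol in the 2016 annotation, 1621 several (unused) and 12146 no entry. The probe set with the highest mean gave each gene's level; the 10 genes have 1 probe set each. The floor was applied to all 19938 genes and the calling rule to the 10908 above it. The rule, but not the floor, was also run on simulated data with an assumed spread, which single arrays cannot supply. With 1 array per region no test was possible. The 10 genes and all lists were chosen with earlier results of these data known. Named besides the 10 genes are other calcium-binding genes past the rule, or the widest in range of a list with none, some examples chosen after their values were seen, and the 3 genes nearest in profile to the 3 members of widest range. Alternatives were other floors, quantile normalization, averaged probe sets, a 4-fold rule and comparison with the mean of the other arrays. Promoter sequences are RefSeq's (GRCm38.p6). Python 3.11.15, NumPy 2.4.6, pandas 2.3.3 and Matplotlib 3.10.9 were used.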

Additional observations from a re-analysis of the deposited data

How the results depend on the processing

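Removing the floor, lowering it to 7.33, raising it to the 75th percentile of gene levels (10.03), quantile normalization and the mean of probe sets left every count of members called within 1.5 times its value, and quantile normalization moved no member level by more than 0.07 log2 units. Of these, only quantile normalization could have changed a count. Each member has 1 probe set, so averaging changed nothing. Every member above the main floor also peaked above 10.03, and no Pvalb difference reached 1 log2 unit, so the other floors could not change a count. With a rule of 2 log2 units no member was higher in the superior colliculus (0, from 1), and the members apart fell to 1 between the cerebellum and the colliculus (from 4), to 2 between the bulb and the colliculus (from 5) and to 2 between the pontine nucleus and the colliculus (from 6). Scgn and Cpne6 kept their calls in the bulb and Necab1 its call in the pontine nucleus, while Cpne4 (1.37) and Vsnl1 (1.49) lost theirs. Against the mean of the other arrays, a looser comparator by construction, 1 member was higher and 3 were lower in the cerebellum, 6 were lower in the pontine nucleus, and 4 were higher and 2 lower in the superior colliculus. Scgn and Cpne6, above the floor in the bulb only, are in each of these counts of lower members, where their values restate their bulb level. The share of all genes past this comparator was not computed. Under it Calb2 (-1.92 in the pontine nucleus), Necab2 (1.29) and Ncald (1.01) in the colliculus passed 1 log2 unit. No difference reversed in any of these alternatives, but only quantile normalization could have reversed one, as each was a gap to every other array. No paired analysis was possible because each region has 1 array, and for the same reason no replicate could be left out. The medians without Scgn and Cpne6 were chosen after seeing the data. Depth has no counterpart on arrays; Pvalb outside the cerebellum and Scgn outside the bulb lie within background, where differences are compressed.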
